A study of Homo sapiens with 9 samples.

Results

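The genes of glycolysis and of the pentose phosphate pathway were followed through activation of a human T-cell line. The group was defined by function, as a list of 37 genes matched by symbol or Ensembl gene identifier to rows of the gene count table, and all 37 were found among the table's 19569 genes. It holds 4 glucose and lactate carriers, 17 glycolytic enzymes, 4 enzymes that set the level of fructose bisphosphate, 5 genes of pyruvate dehydrogenase and its kinases, 6 enzymes of the pentose phosphate pathway and the hypoxia factor HIF1A. The rule itself uses no measured value.

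Glycolysis takes glucose that enters through carriers of the SLC2A family and splits it into pyruvate in the cytosol. Pyruvate either becomes lactate, through lactate dehydrogenase, and leaves with a proton through carriers of the SLC16A family, or enters the mitochondrion and is turned into acetyl-CoA by pyruvate dehydrogenase. The pentose phosphate pathway branches off at glucose phosphate and gives NADPH and the ribose of nucleotides. Primary T cells are known to raise glucose uptake and lactate output when they are activated, a step that depends on CD28 signalling and on the factor MYC.

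Messenger RNA had been sequenced from Jurkat Clone E6-1 cells, a leukaemic T lymphoblast line that is 1 clone and divides without stimulation. The 9 libraries were 3 of control cells that were not activated (0 h), 3 of cells activated for 5 h and 3 of cells activated for 12 h. Activation was by anti-CD3 antibody, coated on plates at 10 µg/mL, with anti-CD28 antibody at 5 µg/mL in the medium, and all cells were grown in RPMI 1640 medium with fetal bovine serum and penicillin and streptomycin. The labels do not say whether the 3 libraries of a group came from separate cultures, so p-values speak to the scatter among these particular libraries, which could be technical in origin.

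Library totals ran from 4222258 to 9359187 counts, and the lowest belonged to 12 h replicate 1. That library was also the lowest of the 3 at 12 h for 25 of the 37 members and for 15 of the 17 glycolytic enzymes, and the part that its depth plays in the values below was not tested. The 12 T-cell markers examined were detected in all libraries, with a summed level of 7333 to 9579 CPM (counts scaled to 1e6 per library, with library sizes adjusted by TMM). The 6 B-cell markers summed to 101 to 227 CPM, nearly all of it CD79A and BLK. Their sum was 183.6 to 227 CPM at 0 h, 101 to 133 CPM at 5 h and 149 to 174 CPM at 12 h, and the part of this in the results was not tested. Myeloid, erythroid and stromal or epithelial markers summed to at most 3.00, 1.63 and 5.92 CPM. In bulk RNA, fewer cells that express a gene and less of its RNA in each cell cannot be told apart.

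Activation did not move the pathway as a block. At 5 h against 0 h, 12 of the 37 members were higher, 13 were lower and 12 did not pass the test. A gene is called where it has an adjusted p under 0.05 in edgeR's quasi-likelihood test over all 12036 genes tested. Among all genes tested 49.7% were called, 24.9% higher and 24.8% lower, and the members' median log2 fold change was 0.09 against 0.00 for all genes. At 12 h against 0 h, 10 members were higher, 12 lower and 15 not called, where 51.1% of all genes were called, 26.3% higher and 24.8% lower, and both medians were 0.00. Between 5 h and 12 h, 5 members were higher, 8 lower and 24 not called, with 36.1% of all genes called, 18.1% higher and 18% lower, and a median of -0.03 against 0.01. All 37 members passed the filter on low counts. The members called made up 67.6% of the list at 5 h, 59.5% at 12 h and 35.1% between the times.

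Of the 37 members, 32 were called in at least 1 of the 3 comparisons, as were 70.9% of all genes tested. In all 3 comparisons 4 members were called, namely SLC2A3, LDHA, PFKFB3 and HIF1A, beside 12% of all genes. At both times against 0 h, 15 members were called in the same direction (32.3% of all genes) and 1, PFKFB3, in opposite directions (1.54% of all genes). The 2 comparisons with 0 h share the same control libraries. The 5 members called in no comparison were GPI, PFKM, LDHB, PFKFB2 and RPIA. The number higher at 5 h was 7 with upper-quartile scaling, all of them among the same 12, and 9 without a low-count filter. It was 7 to 9 when any 1 of the 0 h or 5 h libraries was left out, and lowest, at 7, without 0 h replicate 2. Upper-quartile scaling also split all genes into 2412 higher and 3622 lower at 5 h, where the TMM scaling gave 3001 and 2984. The number higher between 5 h and 12 h was 3 without 12 h replicate 2.

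**Figure D1:**
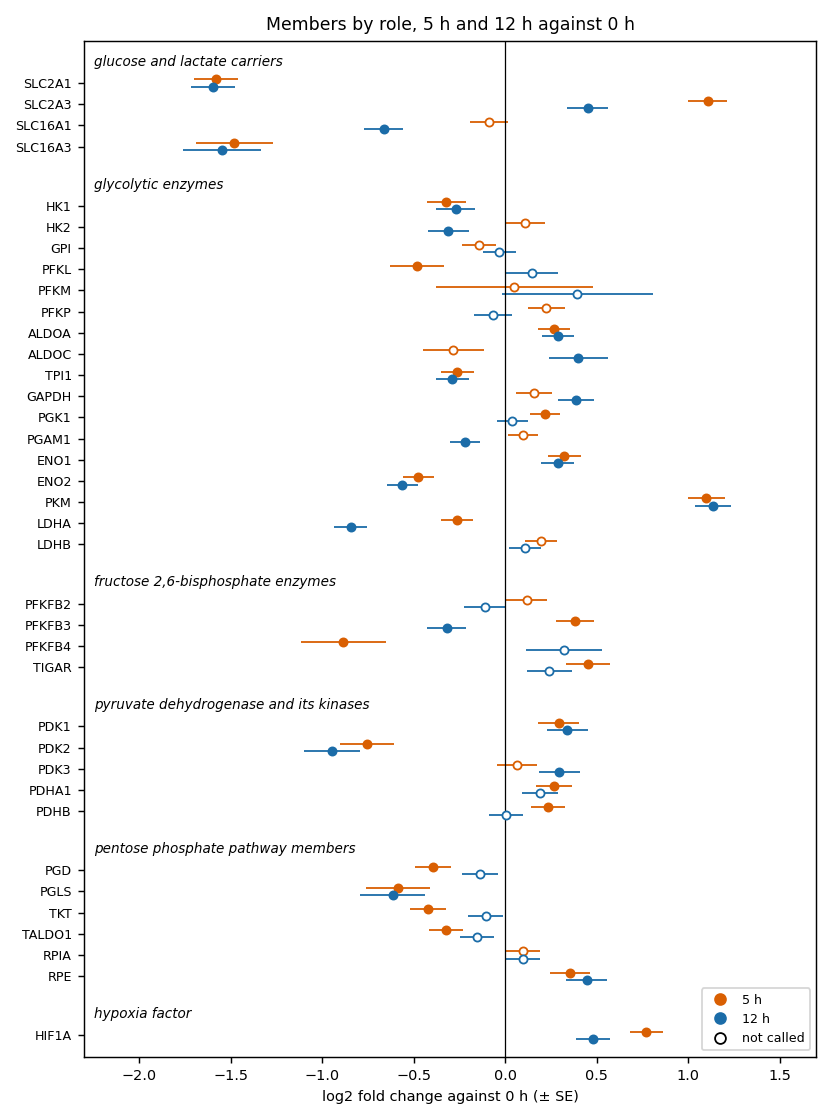
Log2 fold change of each of the 37 members against 0 h, with its standard error, at 5 h (orange) and 12 h (blue), grouped by role; open points did not pass the test. PKM and SLC2A3 lie farthest to the right at 5 h, at 1.10 and 1.11, and SLC2A1 and SLC16A3 farthest to the left, at -1.58 and -1.48.

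The start regions of the genes are shown first, because 2 sequence words are known binding sites of factors that control this pathway. CACGTG is the E-box of MYC and its partner MAX, and ACGTG is the core of sites for the hypoxia factor. The first contains the second, both strands were searched, and ACGTG reads CACGT on the other strand. Promoters were the 250 bases before to 50 bases after each start in RefSeq (GRCh38.p14), which gave 63 promoters for 34 of the 37 members. SLC2A3, SLC16A1 and PFKFB2 had no entry. The search window was the 250 bases before the start.
CACGTG was found for 8 of the 34 member genes (23.5%) and for 7.73% of the 27305 genes in the table, or in 12.7% of member promoters and 6.34% of all promoters. ACGTG was found for 19 of the 34 (55.9%) and for 21.7% of all genes, or in 34.9% and 18.5% of promoters. All genes here means the 35116 promoters of the 27305 genes, whether or not they were expressed in these cells. They were not matched to the members for promoters per gene or base composition, so an excess was not tested. The windows below hold the words in capitals, for members whose RNA moved up, down or both ways.
LDHA, chr11:18394360-18394401, plus strand: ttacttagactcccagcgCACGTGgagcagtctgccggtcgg
LDHA, chr11:18394458-18394512, plus strand: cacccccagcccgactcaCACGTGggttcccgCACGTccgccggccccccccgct
PFKFB3, chr10:6202806-6202847, plus strand: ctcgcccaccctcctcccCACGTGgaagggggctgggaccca
PDK2, chr17:50095204-50095245, plus strand: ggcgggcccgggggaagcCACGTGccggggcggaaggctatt
ALDOA, chr16:30064367-30064408, plus strand: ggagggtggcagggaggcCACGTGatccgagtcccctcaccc
GAPDH, chr12:6535165-6535206, plus strand: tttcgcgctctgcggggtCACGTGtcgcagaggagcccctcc
SLC16A3, chr17:82228956-82229009, plus strand: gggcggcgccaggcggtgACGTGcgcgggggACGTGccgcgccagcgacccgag
The first LDHA window begins 203 bases before the start and the second 105. The second holds an E-box and, 8 bases on, a CACGT. The SLC16A3 window begins 86 bases before the start and holds ACGTG at 2 places. The 8 genes with CACGTG (HK2, PDHB, PFKFB3, LDHA, GAPDH, ALDOA, ALDOC and PDK2) were 3 higher, 2 lower and 3 not called at 5 h, where 24.9% of all genes tested were higher and 24.8% lower. At 12 h they were 3 higher, 4 lower and 1 not called, where 26.3% of all genes were higher and 24.8% lower. A match describes the letters in this window and is not a measured binding site.

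The 2 main glucose carriers moved in opposite directions. SLC2A1 encodes the widely expressed carrier GLUT1 (chr1:42925375-42959176, minus strand, in GENCODE 29 on GRCh38, as for all gene spans below). It was at 108, 118 and 128 CPM at 0 h, 35.6, 40.4 and 42.1 CPM at 5 h and 44.8, 41.6 and 31.2 CPM at 12 h. Every activated library was below every control library, with 5 h and 12 h overlapping each other. The level was 2.99-fold lower at 5 h (log2 -1.58, SE 0.12, adjusted p = 6.47e-10). The 12 h level was 3.02-fold lower (log2 -1.60, SE 0.12, adjusted p = 8.29e-10). SLC2A3 (chr12:7919230-7936275, minus strand), which encodes the high-affinity carrier GLUT3, was at 62.2, 61.9 and 65.3 CPM at 0 h, 135, 138 and 135 CPM at 5 h and 106, 82.9 and 72.6 CPM at 12 h. The 3 times did not overlap, and 5 h was the peak. It was 2.15-fold higher at 5 h (log2 1.11, SE 0.11, adjusted p = 4.06e-08). After 12 h it was 1.37-fold higher (log2 0.45, SE 0.11, adjusted p = 0.00197), and it fell between them (log2 -0.65, SE 0.11, adjusted p = 9.53e-05). Per kilobase of transcript, SLC2A1 was at 32.1 ± 2.73 CPM and SLC2A3 at 16.1 ± 0.476 CPM before activation, and at 10.7 ± 0.918 and 34.7 ± 0.362 CPM at 5 h (mean ± SD, n = 3). The order of the 2 carriers was thus opposite before and after activation. SLC2A14, a near-identical neighbour of SLC2A3, did not pass the filter on low counts, and reads of the pair may be split between them.

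Both lactate carriers were lower by 12 h. SLC16A1 (chr1:112911847-112957013, minus strand), which encodes the monocarboxylate carrier MCT1, was at 309, 297 and 319.9 CPM at 0 h, 281, 287 and 303 CPM at 5 h and 237, 185 and 165 CPM at 12 h. At 5 h its libraries overlapped those at 0 h (log2 -0.09, SE 0.10, adjusted p = 0.499). At 12 h it was 1.59-fold lower than at 0 h (log2 -0.66, SE 0.11, adjusted p = 2.67e-05). It was also lower than at 5 h (log2 -0.58, SE 0.11, adjusted p = 3.09e-04). SLC16A3 (chr17:82228397-82261129, plus strand) encodes MCT4, the lactate exporter of strongly glycolytic cells. Its libraries were at 17.9, 13.4 and 21.6 CPM at 0 h, 4.81, 7.56 and 6.57 CPM at 5 h and 4.63, 6.97 and 5.92 CPM at 12 h. Its control libraries were the more scattered, yet all lay above all activated ones. The level was 2.79-fold lower at 5 h (log2 -1.48, SE 0.21, adjusted p = 6.52e-06). By 12 h the level was 2.93-fold lower (log2 -1.55, SE 0.21, adjusted p = 4.52e-06). Exons of SLC16A3 overlap CSNK1D on the opposite strand, and since the use of strand in counting is not known, reads of the pair cannot be told apart. Together the 4 carriers made up 0.0535% ± 0.00235 of the counts before activation, 0.0457% ± 0.00183 after 5 h and 0.0321% ± 0.00567 after 12 h (mean ± SD, n = 3). No 2 times overlapped. For 3 libraries against 3 the smallest exact two-sided permutation p is 0.1, which these 3 comparisons reached.

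**Figure D2:**
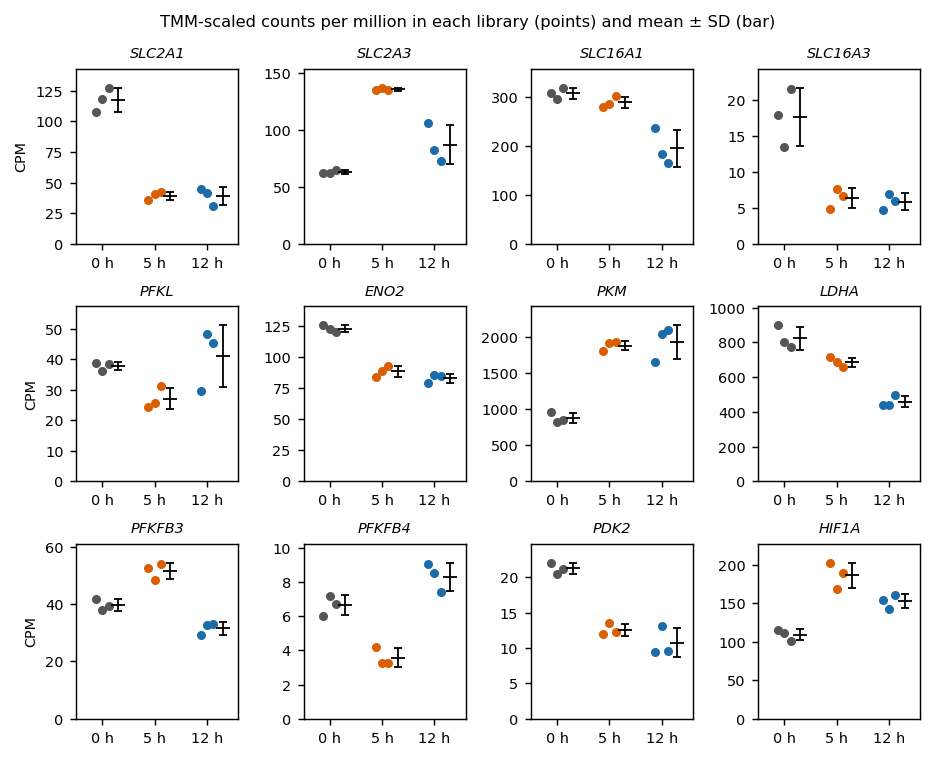
TMM-scaled CPM of 12 members in each of the 9 libraries (points; grey 0 h, orange 5 h, blue 12 h), with the mean and SD of 3 libraries beside them; each vertical axis starts at 0 and has its own scale. SLC2A1, SLC16A3, ENO2 and PDK2 dropped by 5 h and stayed low, PKM rose and stayed high, LDHA was lower at each later time, and SLC2A3, PFKFB3 and HIF1A were highest at 5 h.

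Hexokinase traps glucose as glucose phosphate, the first step of glycolysis. HK1, the common form, was at 61.8, 53.3 and 63.9 CPM at 0 h, 50.3, 47.2 and 45.9 CPM at 5 h and 43.9, 51.3 and 52.5 CPM at 12 h. Both activated groups lay below the controls, by 1.25-fold at 5 h (log2 -0.32, SE 0.11, adjusted p = 0.0154) and 1.21-fold at 12 h (log2 -0.27, SE 0.11, adjusted p = 0.0385). HK2, the inducible form of growing cells, was at 55.3, 46.6 and 48.1 CPM at 0 h, 54.1, 51.7 and 56 CPM at 5 h and 33.9, 43 and 42.7 CPM at 12 h. Its 5 h libraries overlapped the controls (log2 0.11, SE 0.11, adjusted p = 0.437). Its 12 h libraries lay below both the controls (log2 -0.31, SE 0.11, adjusted p = 0.0260) and the 5 h libraries (log2 -0.42, SE 0.11, adjusted p = 0.00687). The HK1 call at 5 h was lost when 0 h replicate 3 or 5 h replicate 3 was left out (adjusted p from 0.0659 to 0.0734). Its call at 12 h was lost when 0 h replicate 1 or 3, 5 h replicate 3 or 12 h replicate 1 was left out, and with the DESeq2 Wald test or with only the 2 groups compared in the fit (adjusted p from 0.0527 to 0.142). The HK2 call at 12 h was lost when 0 h replicate 1 or 12 h replicate 1 was left out (adjusted p from 0.0988 to 0.126). GPI, which turns glucose phosphate into fructose phosphate, was at 239, 218 and 208 CPM at 0 h, 189, 208 and 205 CPM at 5 h and 192, 227 and 229.7 CPM at 12 h. The times overlapped and none was called, although with upper-quartile scaling its 5 h value was, lower (log2 -0.23, adjusted p = 0.0405).

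Phosphofructokinase commits sugar to glycolysis and is made of liver, muscle and platelet type subunits. The liver type, PFKL (chr21:44300051-44327376, plus strand), was at 38.7, 36.3 and 38.6 CPM at 0 h, 24.5, 25.8 and 31.1 CPM at 5 h and 29.5, 48.5 and 45.4 CPM at 12 h. It was 1.40-fold lower at 5 h (log2 -0.48, SE 0.15, adjusted p = 0.0101). Between 5 h and 12 h it rose (log2 0.63, SE 0.15, adjusted p = 0.00252), with 1 of the 12 h libraries, replicate 1, inside the 5 h range. Against 0 h the 12 h level was not called (log2 0.15, SE 0.14, adjusted p = 0.404), but without 12 h replicate 1 it was (log2 0.30, adjusted p = 0.0419). PFKP, the platelet type, was at 197, 182 and 208 CPM at 0 h, 209, 235 and 241 CPM at 5 h and 158, 211 and 188 CPM at 12 h. It was the most abundant of the 3 per kilobase, at 73.7 ± 4.80 CPM at 0 h against 13 ± 0.472 CPM for PFKL and 0.785 ± 0.444 CPM for PFKM (mean ± SD, n = 3). PFKP fell between 5 h and 12 h (log2 -0.29, SE 0.10, adjusted p = 0.0302). That call was lost when 5 h replicate 2 or 3 or 12 h replicate 1 or 3 was left out (adjusted p from 0.0626 to 0.117). Its 5 h level against 0 h was not called (log2 0.22, SE 0.10, adjusted p = 0.0718), though the libraries did not overlap. It was called without 5 h replicate 1 (log2 0.28, adjusted p = 0.0423), 12 h replicate 1 (log2 0.22, adjusted p = 0.0342) or 12 h replicate 2 (log2 0.22, adjusted p = 0.0497), and with only these 2 groups in the fit (log2 0.22, adjusted p = 0.0273). PFKM, the muscle type, held only 31, 17 and 9 counts at 0 h, 22, 13 and 18 at 5 h and 6, 37 and 26 at 12 h, and a change was not detectable at this depth. Its exons also overlap SENP1 on the opposite strand.

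Aldolase splits the sugar, and triose phosphate isomerase interconverts its products. ALDOA was at 358, 351 and 351 CPM at 0 h, 414, 421 and 440.4 CPM at 5 h and 378, 454 and 461 CPM at 12 h. It was 1.20-fold higher at 5 h (log2 0.27, SE 0.09, adjusted p = 0.0169). The 12 h level was 1.22-fold higher (log2 0.29, SE 0.09, adjusted p = 0.0105), without overlap with 0 h. ALDOC (chr17:28573115-28577264, minus strand) is best known as the aldolase of brain. It was at 16, 14.3 and 12.2 CPM at 0 h, 12.3, 10.3 and 12.4 CPM at 5 h and 14.9, 21.3 and 18.6 CPM at 12 h. It was higher at 12 h than at 5 h (log2 0.68, SE 0.17, adjusted p = 0.00319), with no overlap. Its 12 h call against 0 h (log2 0.40, SE 0.16, adjusted p = 0.0423) had overlapping libraries. That call was lost when 0 h replicate 2 or 3, 5 h replicate 3 or 12 h replicate 2 or 3 was left out, and with upper-quartile scaling, with the DESeq2 Wald test or with limma on the deposited log2 values (adjusted p from 0.0506 to 0.241). TPI1, the isomerase, was at 274, 261 and 281 CPM at 0 h, 224, 226 and 231 CPM at 5 h and 193, 239 and 233 CPM at 12 h. Both activated groups were lower without overlap, at 5 h (log2 -0.26, SE 0.09, adjusted p = 0.0194) and at 12 h (log2 -0.29, SE 0.09, adjusted p = 0.0104). The ALDOA call at 5 h was lost when 0 h replicate 2 or 5 h replicate 3 was left out, and with upper-quartile scaling (adjusted p from 0.0606 to 0.0914). That of TPI1 was lost when 0 h replicate 3 or 5 h replicate 1 was left out (adjusted p from 0.0540 to 0.0655). Exons of TPI1 overlap SPSB2 on the opposite strand, and those of ALDOA overlap the counted gene AC093512.2 on the same strand.

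Of the next 3 enzymes, GAPDH was higher at 12 h, PGK1 higher at 5 h and PGAM1 lower at 12 h. GAPDH, often used as a reference gene, was at 2915, 2661 and 2820.2 CPM at 0 h, 3021, 3203 and 3143 CPM at 5 h and 3149, 3909 and 3898 CPM at 12 h. It was not called at 5 h (log2 0.16, SE 0.10, adjusted p = 0.191) and was 1.30-fold higher at 12 h (log2 0.38, SE 0.10, adjusted p = 0.00268), with no overlap with 0 h. PGK1, the first enzyme of the pathway to make ATP, was at 631, 590.2 and 574 CPM at 0 h, 695, 694 and 699 CPM at 5 h and 589, 602 and 654 CPM at 12 h. Its exons overlap ATP7A on the same strand. Its 5 h libraries lay above the controls by 1.16-fold (log2 0.22, SE 0.08, adjusted p = 0.0363), and at 12 h they overlapped (log2 0.04, SE 0.08, adjusted p = 0.719). The 5 h call was lost when 0 h replicate 2 or 3 or 5 h replicate 1, 2 or 3 was left out, and with upper-quartile scaling or without a low-count filter (adjusted p from 0.0650 to 0.193). PGAM1, the mutase, was at 407, 402 and 379 CPM at 0 h, 424, 438 and 408 CPM at 5 h and 332, 335 and 352 CPM at 12 h. The 12 h libraries were below those at 0 h (log2 -0.22, SE 0.08, adjusted p = 0.0284) and at 5 h (log2 -0.32, SE 0.08, adjusted p = 0.00504). The 12 h call against 0 h was lost when 0 h replicate 1 or 2 or 12 h replicate 2 was left out, and with only the 2 groups compared in the fit (adjusted p from 0.0558 to 0.0943).

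The 2 enolases parted. ENO1, the form of most cells, was at 1030.2, 957 and 948 CPM at 0 h, 1215, 1203 and 1253 CPM at 5 h and 1059, 1199 and 1317 CPM at 12 h. It was higher at 5 h (log2 0.32, SE 0.09, adjusted p = 0.00632) and at 12 h (log2 0.29, SE 0.09, adjusted p = 0.0135). ENO2 (chr12:6913745-6923698, plus strand) is known as the neuronal enolase and as a hypoxia-responsive gene. It was at 126, 123 and 120.0 CPM at 0 h, 83.7, 88.4 and 93.1 CPM at 5 h and 79, 85.5 and 84.5 CPM at 12 h. All its activated libraries were below all controls, by 1.39-fold at 5 h (log2 -0.47, SE 0.09, adjusted p = 1.02e-04) and 1.48-fold at 12 h (log2 -0.56, SE 0.09, adjusted p = 1.61e-05). ENO1 was the more abundant per kilobase, at 417 ± 19.3 CPM against 43.4 ± 1.03 CPM at 0 h (mean ± SD, n = 3). The 12 h call of ENO1 was lost when 0 h replicate 2 or 3 or 12 h replicate 3 was left out (adjusted p from 0.05001 to 0.0719).

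Pyruvate kinase had the largest log2 rise among the 17 glycolytic enzymes at both times. PKM (chr15:72199029-72231822, minus strand) encodes pyruvate kinase, the last step to pyruvate, in an M1 and an M2 form that gene counts do not separate. It was at 963, 822 and 856 CPM at 0 h, 1812, 1915 and 1932 CPM at 5 h and 1661, 2043 and 2096 CPM at 12 h. The activated libraries all stood clear of the controls, and 5 h and 12 h overlapped. The gene was 2.14-fold higher at 5 h (log2 1.10, SE 0.10, adjusted p = 1.56e-08). After 12 h it was 2.20-fold higher (log2 1.14, SE 0.10, adjusted p = 1.10e-08). The 3 splicing factors known to favour the M2 form, PTBP1, HNRNPA1 and HNRNPA2B1, were examined beside it. PTBP1 was higher at 5 h (log2 0.43, SE 0.09, adjusted p = 7.44e-04), HNRNPA1 at 12 h (log2 0.24, SE 0.10, adjusted p = 0.0430), and HNRNPA2B1 was called at neither time. They were named after their values were seen.

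Lactate dehydrogenase turns pyruvate into lactate and back, as tetramers of A and B subunits. LDHA (chr11:18394388-18408425, plus strand), the subunit that favours lactate, was at 900.1, 801 and 772 CPM at 0 h, 713, 685 and 660.1 CPM at 5 h and 441, 439 and 496 CPM at 12 h. The 3 times did not overlap and each later time was lower. It was 1.20-fold lower at 5 h (log2 -0.26, SE 0.09, adjusted p = 0.0183). By 12 h the level was 1.80-fold lower (log2 -0.85, SE 0.09, adjusted p = 1.55e-07), and it fell between the times (log2 -0.58, SE 0.09, adjusted p = 5.22e-05). The 5 h call was lost when 0 h replicate 1 or 5 h replicate 3 was left out (adjusted p from 0.0818 to 0.0846). LDHB, the subunit of oxidative tissues, was at 719, 679.5 and 662 CPM at 0 h, 823, 785 and 754 CPM at 5 h and 731, 691 and 799 CPM at 12 h. It was called neither at 5 h (log2 0.20, SE 0.09, adjusted p = 0.0662), although all its 5 h libraries lay above the controls, nor at 12 h (log2 0.11, SE 0.09, adjusted p = 0.316). The 5 h value of LDHB was called without 12 h replicate 1 (log2 0.19, adjusted p = 0.0457), with only these 2 groups in the fit (log2 0.19, adjusted p = 0.0334) and with the DESeq2 Wald test (log2 0.20, adjusted p = 0.0275). Processed pseudogenes of LDHA, GAPDH and several other members are known, and reads shared with such copies make single counts uncertain.

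The PFKFB enzymes make and remove the fructose bisphosphate that switches phosphofructokinase on, and TIGAR removes it. PFKFB3 (chr10:6144934-6254644, plus strand), the form with the highest kinase activity, was at 41.8, 37.9 and 39.2 CPM at 0 h, 52.6, 48.5 and 53.8 CPM at 5 h and 29, 32.8 and 32.8 CPM at 12 h. The 5 h libraries were the highest and the 12 h libraries the lowest, with no overlap among the 3 times. Against 0 h it was 1.30-fold higher at 5 h (log2 0.38, SE 0.10, adjusted p = 0.00470). The 12 h level was 1.25-fold lower (log2 -0.32, SE 0.11, adjusted p = 0.0175), with a fall of 0.70 on the log2 scale between them (SE 0.11, adjusted p = 4.59e-05). The 12 h call was lost when 0 h replicate 1 was left out (adjusted p = 0.0612). PFKFB4 (chr3:48517684-48562015, minus strand) did the reverse, at 6.00, 7.17 and 6.70 CPM at 0 h, 4.21, 3.24 and 3.29 CPM at 5 h and 9.02, 8.49 and 7.40 CPM at 12 h. It was 1.85-fold lower at 5 h (log2 -0.88, SE 0.23, adjusted p = 0.00344) and 2.31-fold higher at 12 h than at 5 h (log2 1.20, SE 0.23, adjusted p = 4.28e-04). The 12 h libraries lay above all controls, but that difference was not called (log2 0.32, SE 0.21, adjusted p = 0.209). The gene is scarce, with 28, 24 and 21 counts at 5 h, and its exons overlap UCN2 on the same strand.

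PFKFB2 was at 35.1, 38.8 and 35 CPM at 0 h, 43.6, 34.4 and 40.1 CPM at 5 h and 35.3, 33.8 and 31.9 CPM at 12 h, overlapping at all times and not called. Its exons overlap YOD1 on the opposite strand. TIGAR, a phosphatase known as a p53 target, was at 25.7, 31 and 25.1 CPM at 0 h, 40.4, 36 and 35.1 CPM at 5 h and 35.1, 29.4 and 32.7 CPM at 12 h. It was 1.37-fold higher at 5 h (log2 0.45, SE 0.12, adjusted p = 0.00428) without overlap, and at 12 h it was not called (log2 0.24, SE 0.12, adjusted p = 0.112). Without 0 h replicate 2 the 12 h value of TIGAR was called (log2 0.34, adjusted p = 0.0488). Of the 4 genes, then, 2 were higher and 1 lower at 5 h, and PFKFB3 alone was called, lower, at 12 h. Over all genes tested 24.9% were higher and 24.8% lower at 5 h, and 24.8% were lower at 12 h.

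Pyruvate dehydrogenase is held inactive by its kinases, and these diverged. PDK2 (chr17:50094737-50112152, plus strand) was at 22.1, 20.5 and 21.2 CPM at 0 h, 12, 13.5 and 12.2 CPM at 5 h and 9.51, 13.2 and 9.61 CPM at 12 h. All activated libraries were below all controls, by 1.69-fold at 5 h (log2 -0.76, SE 0.15, adjusted p = 2.82e-04) and 1.93-fold at 12 h (log2 -0.95, SE 0.15, adjusted p = 3.08e-05). Its exons overlap SAMD14 on the opposite strand. PDK1, a known target of the hypoxia factor, was at 31.3, 36 and 32.8 CPM at 0 h, 45.4, 39.7 and 37.2 CPM at 5 h and 42.4, 40.7 and 43.3 CPM at 12 h. It was called higher at 5 h (log2 0.29, SE 0.11, adjusted p = 0.0352) and at 12 h (log2 0.34, SE 0.11, adjusted p = 0.0157). PDK3 was at 61.7, 63 and 52.4 CPM at 0 h, 70.7, 57.4 and 56.8 CPM at 5 h and 74.3, 65.6 and 77.8 CPM at 12 h. It was called higher at 12 h (log2 0.30, SE 0.11, adjusted p = 0.0314) and not at 5 h (log2 0.06, SE 0.11, adjusted p = 0.660). The activated libraries of PDK1 and the 12 h libraries of PDK3 lay above their controls by a narrow margin. For PDK1 the 5 h call was lost when 0 h replicate 1 or 3 or 5 h replicate 1 or 2 was left out, and with upper-quartile scaling, with the DESeq2 Wald test or without a low-count filter (adjusted p from 0.0565 to 0.180). Its 12 h call was lost when 0 h replicate 1 was left out (adjusted p = 0.0585). The PDK3 call at 12 h was lost when 0 h replicate 3 or 12 h replicate 1 or 3 was left out, and with upper-quartile scaling (adjusted p from 0.0672 to 0.156).

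PDHA1 and PDHB encode the 2 subunits of the first enzyme of the complex. PDHA1 was at 66.4, 61.1 and 68.8 CPM at 0 h, 81.5, 74 and 80.6 CPM at 5 h and 65.3, 79.5 and 77.9 CPM at 12 h. Its exons overlap MAP3K15 on the opposite strand. PDHB was at 56.4, 57 and 55.2 CPM at 0 h, 69.1, 64.1 and 65.4 CPM at 5 h and 52.9, 55.5 and 60.1 CPM at 12 h. At 5 h both lay above the controls without overlap, PDHA1 by 1.20-fold (log2 0.26, SE 0.10, adjusted p = 0.0299) and PDHB by 1.18-fold (log2 0.24, SE 0.09, adjusted p = 0.0409). Neither was called at 12 h. The PDHA1 call was lost when 0 h replicate 1 or 2 or 5 h replicate 1 or 3 was left out, and with upper-quartile scaling (adjusted p from 0.0561 to 0.139). Without 12 h replicate 1, PDHA1 was called at 12 h too (log2 0.26, adjusted p = 0.0323). The PDHB call was lost when 0 h replicate 1, 2 or 3 or 5 h replicate 1, 2 or 3 was left out, and with upper-quartile scaling, with the DESeq2 Wald test, without a low-count filter or with a filter of at least 50 counts in 3 libraries (adjusted p from 0.0538 to 0.189).

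In the pentose phosphate pathway 4 of the 6 members were lower at 5 h, where 24.8% of all genes tested were lower. Of these 4, PGD and TKT were higher at 12 h than at 5 h, where 18.1% of all genes were higher. PGD (chr1:10398592-10420144, plus strand), which makes NADPH in the oxidative arm, was at 215, 203 and 210.2 CPM at 0 h, 150.5, 158 and 169 CPM at 5 h and 159, 198 and 213 CPM at 12 h. It was 1.32-fold lower at 5 h (log2 -0.40, SE 0.10, adjusted p = 0.00214) and not called at 12 h against 0 h (log2 -0.14, SE 0.10, adjusted p = 0.251). Between the times it rose (log2 0.26, SE 0.10, adjusted p = 0.0451), with 12 h replicate 1 inside the 5 h range. TKT (chr3:53224707-53256052, minus strand), transketolase, which links the pathway back to glycolysis, was at 325, 350.4 and 374 CPM at 0 h, 243, 269.7 and 269 CPM at 5 h and 280.1, 357 and 335 CPM at 12 h. It took the same course, 1.34-fold lower at 5 h (log2 -0.42, SE 0.10, adjusted p = 0.00111) and not called at 12 h (log2 -0.11, SE 0.10, adjusted p = 0.367). Its level at 12 h was above that at 5 h (log2 0.32, SE 0.10, adjusted p = 0.0152). The rise between the times was lost for PGD when 0 h replicate 2 or 3, 5 h replicate 1, 2 or 3 or 12 h replicate 2 or 3 was left out, and with limma on the deposited log2 values or with only the 2 groups compared in the fit (adjusted p from 0.0510 to 0.203). For TKT it was lost when 5 h replicate 1 or 12 h replicate 2 was left out (adjusted p from 0.0737 to 0.0819).

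TALDO1, transaldolase, was at 114, 107 and 114 CPM at 0 h, 85.8, 88.6 and 93.1 CPM at 5 h and 87.7, 111 and 100.1 CPM at 12 h. It was lower at 5 h (log2 -0.32, SE 0.09, adjusted p = 0.00697) and not called at 12 h (log2 -0.15, SE 0.09, adjusted p = 0.178). Without 12 h replicate 2 its 12 h value was called, lower (log2 -0.24, adjusted p = 0.0494). PGLS (chr19:17511629-17521288, plus strand), the lactonase of the oxidative arm, was at 19.2, 20.3 and 27.4 CPM at 0 h, 11.6, 17.3 and 15.6 CPM at 5 h and 11.5, 16.9 and 14.3 CPM at 12 h. It was 1.50-fold lower at 5 h (log2 -0.59, SE 0.18, adjusted p = 0.00861). After 12 h it was 1.53-fold lower (log2 -0.61, SE 0.18, adjusted p = 0.00649), and 0 h replicate 3 was its highest library. The 5 h call was lost when 0 h replicate 3 or 5 h replicate 1 was left out (adjusted p from 0.0521 to 0.0837) and the 12 h call when 0 h replicate 3 was left out (adjusted p = 0.0634). RPE, the epimerase, was at 48.8, 43 and 41.8 CPM at 0 h, 64.3, 54 and 52.4 CPM at 5 h and 62.9, 55.3 and 64.3 CPM at 12 h. Unlike the others it was higher at 5 h (log2 0.35, SE 0.11, adjusted p = 0.0115) and 12 h (log2 0.44, SE 0.11, adjusted p = 0.00216). The 5 h call of RPE was lost when 0 h replicate 2 or 3 or 5 h replicate 1 was left out (adjusted p from 0.0507 to 0.0887). Its exons overlap KANSL1L on the opposite strand, and a near-identical copy, RPEL1, may share its reads. RPIA, the isomerase that makes ribose phosphate, was at 78.1, 70.3 and 68.1 CPM at 0 h, 71.6, 81.5 and 78.1 CPM at 5 h and 75.1, 78.2 and 78.4 CPM at 12 h with no call.

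**Figure D3:**
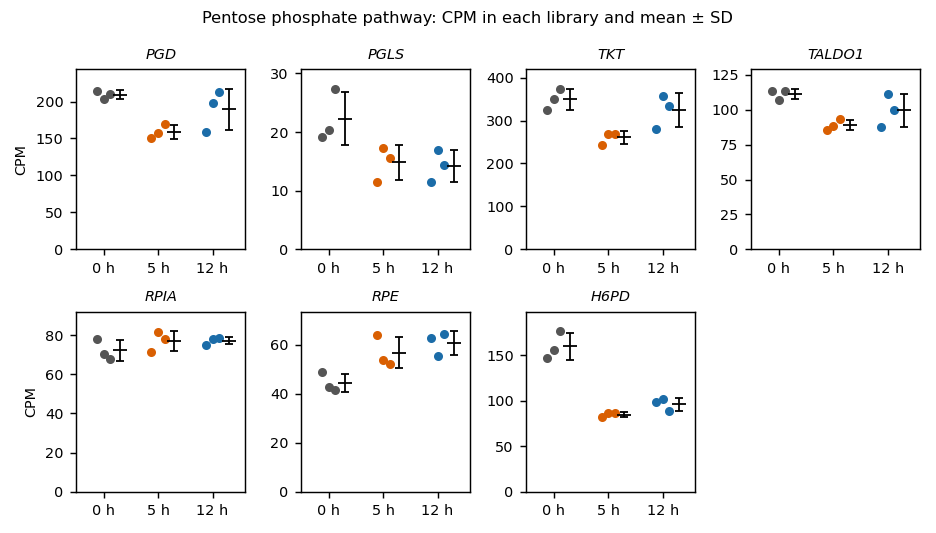
CPM in each library (points) and mean ± SD of 3 libraries for the 6 pentose phosphate members and for H6PD, which is not a member. PGD, PGLS, TKT, TALDO1 and H6PD were below their 0 h libraries at 5 h, while RPE was above them and RPIA overlapped.

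The members of the pathway made up 0.0854% ± 0.00223 of the counts before activation, 0.0638% ± 0.00316 after 5 h and 0.0749% ± 0.00800 after 12 h (mean ± SD, n = 3). By this share both activated groups were below the controls. Summed as TMM-scaled CPM, the 5 h libraries (627 to 678 CPM) were below those at 0 h (794 to 835 CPM), and the 12 h libraries (676 to 816 CPM) overlapped them. Among 11 other genes of the pathway 8 were tested. At 5 h, 1 was higher and 4 lower, where 24.9% of all genes tested were higher and 24.8% lower. At 12 h, 6 were lower, where 24.8% of all genes were, and the other 2 were not called. The largest falls were in TKTL1 (-2.33 and -2.59 on the log2 scale at 5 h and 12 h), a transketolase-like gene with 15, 17 and 31 counts at 0 h and 4, 6 and 1 at 5 h. Next came DERA (-0.94 and -1.20), a deoxyribose phosphate aldolase, and IDNK at 12 h (-1.46), a gluconate kinase. IDNK held only 31, 31 and 37 counts at 0 h and 6, 18 and 8 at 12 h. H6PD, which makes NADPH in the endoplasmic reticulum, was named after its values were seen. It was lower at both times (log2 -0.92, SE 0.09, adjusted p = 6.17e-08 at 5 h and log2 -0.74, SE 0.09, adjusted p = 1.40e-06 at 12 h).

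HIF1A (chr14:61695513-61748259, plus strand) encodes the oxygen-sensitive subunit of the hypoxia factor, whose protein is controlled mainly by degradation, which RNA does not show. It was at 115, 112 and 101 CPM at 0 h, 201, 169 and 189 CPM at 5 h and 154, 143 and 161 CPM at 12 h. The 3 times did not overlap. The level was 1.71-fold higher at 5 h (log2 0.77, SE 0.09, adjusted p = 6.78e-07) and 1.40-fold higher at 12 h (log2 0.48, SE 0.09, adjusted p = 2.09e-04). Between the times it fell (log2 -0.29, SE 0.09, adjusted p = 0.0177). The fall between the times was lost when 5 h replicate 1 or 3 or 12 h replicate 2 was left out (adjusted p from 0.0593 to 0.0964). Among all genes tested 24.9% were higher and 24.8% lower at 5 h, and 26.3% and 24.8% at 12 h. Of 9 partners and regulators of the factor, 6 were tested, with 2 higher and 2 lower at 5 h, 3 higher and 1 lower at 12 h. On the log2 scale at 5 h and 12 h, EPAS1, its sister subunit, was higher (1.08 and 0.79), as was ARNT, the common partner (0.33 and 0.55). EGLN1, the hydroxylase that marks the factor for degradation, was lower (-1.38 and -1.41). A further regulator, the inhibitor HIF1AN, was named after its values were seen. Per kilobase it was at 15.2 ± 1.28 CPM at 0 h, 16.1 ± 0.527 CPM at 5 h and 20.5 ± 1.32 CPM at 12 h (mean ± SD, n = 3).

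Of 14 genes known to respond to hypoxia outside glycolysis 11 were tested, with 6 higher and 1 lower at 5 h and 5 higher and 1 lower at 12 h. The shares over all genes tested were 24.9% higher and 24.8% lower at 5 h, and 26.3% and 24.8% at 12 h. BHLHE40, a repressor also induced by receptor signals, was at 2.93 ± 0.468, 69.3 ± 4.62 and 12.3 ± 1.34 CPM at 0 h, 5 h and 12 h. VEGFA, a vessel growth factor, was at 7.17 ± 0.968, 11 ± 2.53 and 23.1 ± 4.19 CPM (mean ± SD, n = 3), and both genes were called higher at both times. ANKRD37 was called at 5 h (log2 1.34, SE 0.43, adjusted p = 0.0128) and not at 12 h (log2 0.64, SE 0.46, adjusted p = 0.258). DDIT4, named after its values were seen, was the gene called lower at both times (log2 -1.03 at 5 h and -1.07 at 12 h).

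Pairs of related members were compared within each library, as the log2 ratio of their counts, which does not depend on how libraries are scaled. SLC2A1 over SLC2A3 was 0.89 ± 0.09 at 0 h, -1.79 ± 0.12 at 5 h and -1.15 ± 0.14 at 12 h (mean ± SD, n = 3). The ratio was 6.43-fold lower at 5 h than at 0 h and 4.13-fold lower at 12 h. LDHA over LDHB was 0.32, 0.24 and 0.22 at 0 h, -0.21, -0.20 and -0.19 at 5 h and -0.73, -0.65 and -0.69 at 12 h, a stepwise drop with little scatter. By 12 h it was 1.93-fold lower than at 0 h. ENO1 over ENO2 was 2.99 ± 0.04, 3.79 ± 0.06 and 3.84 ± 0.11, or 1.74-fold and 1.80-fold higher at 5 h and 12 h.

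In 5 of the 10 pairs the 5 h ratios stood clear of the controls and the 12 h ratios overlapped them. PFKL over PFKP was -2.36 ± 0.05, -3.07 ± 0.12 and -2.20 ± 0.19 at 0 h, 5 h and 12 h. HK1 over HK2 was 0.25 ± 0.14, -0.17 ± 0.10 and 0.31 ± 0.06, and ALDOA over ALDOC was 4.64 ± 0.18, 5.19 ± 0.15 and 4.56 ± 0.14 (mean ± SD, n = 3). PFKFB3 over PFKFB2 was 0.13 ± 0.15, 0.40 ± 0.11 and -0.10 ± 0.17, and PDK1 over PDK3 was -0.82 ± 0.15, -0.59 ± 0.06 and -0.78 ± 0.08. For PFKL over PFKP only 12 h replicate 1, at -2.42, lay among the controls, and the other two 12 h libraries, at -2.12 and -2.05, were above them all. SLC16A1 over SLC16A3 was 4.15 ± 0.29, 5.53 ± 0.31 and 5.05 ± 0.52, with both activated groups above the controls. Of 30 comparisons over 10 pairs, 20 had no overlap and reached the smallest exact permutation p that 3 against 3 allows, 0.1 (two-sided; 0.15 after Benjamini-Hochberg adjustment), so none can pass 0.05. PFKM over PFKP overlapped in all 3 comparisons. How often other pairs of genes would stand clear was not computed, so the count of 20 is not set against a general rate.

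**Figure D4:**
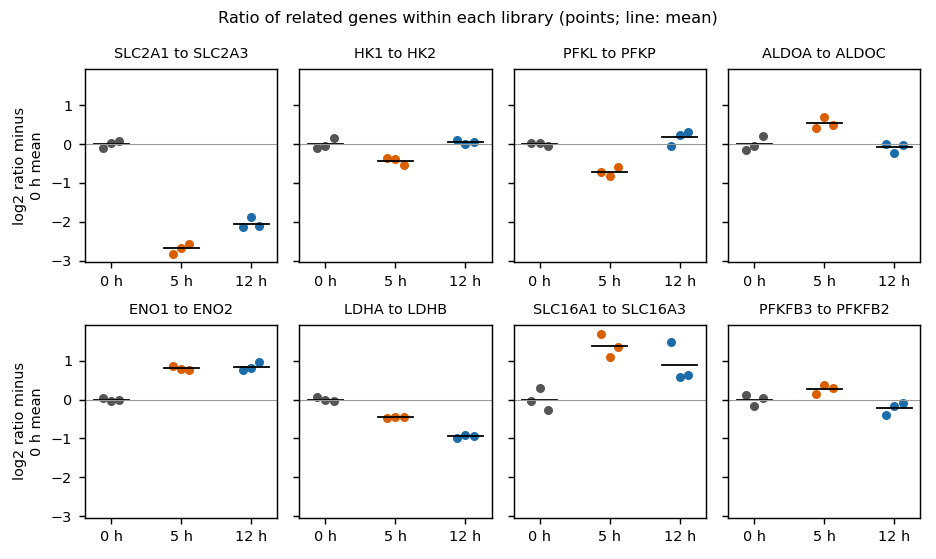
Log2 ratio of counts of 8 pairs of members in each library, less the mean of the 0 h libraries (points; lines mark the mean of 3); all panels share 1 vertical axis. SLC2A1 to SLC2A3 moved the most, LDHA to LDHB stepped down at each time, and for PFKL to PFKP, HK1 to HK2, ALDOA to ALDOC and PFKFB3 to PFKFB2 the 12 h values overlapped those at 0 h while the 5 h values did not.

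The 37 members together made up 1.08% ± 0.0299 of the counts before activation, 1.15% ± 0.0242 after 5 h and 1.16% ± 0.106 after 12 h (mean ± SD, n = 3). The 5 h libraries lay above the controls and the 12 h libraries overlapped them, since 12 h replicate 1 was at 1.04% and the other two at 1.20% and 1.23%. GAPDH alone took 0.295% ± 0.0102, 0.303% ± 0.0113 and 0.357% ± 0.0445. Over the 24 comparisons of such shares the lowest adjusted exact permutation p was 0.185, so none can pass 0.05. The 17 enzymes of glycolysis, at 0.896% ± 0.0327, 0.983% ± 0.0224 and 1.000% ± 0.103, make up most of the total. By share their 12 h libraries overlapped the controls. Summed as TMM-scaled CPM, these enzymes were at 8200 to 8935 CPM at 0 h and 9968 to 10238 CPM at 5 h. At 12 h they were at 9085 to 10970 CPM, so on this scale both activated groups lay above the controls. For all 37 members the 12 h sums (10661 to 12584 CPM) overlapped those at 0 h (9949 to 10692 CPM).

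Among 22 other isoforms of the glycolytic steps 6 passed the filter on low counts, with 1 higher and 2 lower at each time against 0 h. Beside this and the carriers below, 24.9% of all genes tested were higher and 24.8% lower at 5 h. At 12 h these shares were 26.3% and 24.8%. HKDC1, a hexokinase-like gene, fell from 28, 24 and 33 counts at 0 h to 3, 3 and 3 at 5 h and 0, 11 and 2 at 12 h (log2 -3.03, SE 0.51, adjusted p = 5.59e-05 at 5 h). PGM2, a phosphopentomutase, was higher at 5 h (log2 0.87, SE 0.11, adjusted p = 2.16e-06) and ENO3, the muscle enolase, lower (log2 -0.53, SE 0.22, adjusted p = 0.0480). PGK2, PKLR, LDHC, FBP2 and PDK4 had no count in any library. Other sugar and monocarboxylate carriers were 7 lower and 4 not called of 11 tested at 5 h, and 4 lower and 7 not called at 12 h. SLC2A6, a lysosomal carrier, had a log2 change of -1.50 at 5 h, and SLC2A4, the insulin-responsive carrier, -1.23. SLC2A4 held only 25, 17 and 24 counts at 0 h and 9, 8 and 8 at 5 h. MPC1, a subunit of the mitochondrial pyruvate carrier, had a log2 change of -0.87 at 5 h and -1.15 at 12 h.

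Around pyruvate dehydrogenase, 2 of 7 other genes were higher and 1 lower at 5 h, and 1 higher and 3 lower at 12 h. For all genes tested the shares were 24.9% higher and 24.8% lower at 5 h, and 26.3% and 24.8% at 12 h. PDP2, a phosphatase that reverses the kinases, had a log2 change of 0.93 at 5 h and 1.32 at 12 h (adjusted p = 3.68e-08 and 2.59e-10). PC, pyruvate carboxylase, was at 28.2 ± 5.10, 9.24 ± 1.99 and 9.23 ± 0.968 CPM at 0 h, 5 h and 12 h, lower at both times. DLAT, the acetyltransferase of the complex, was lower at 12 h (log2 -0.65, SE 0.11, adjusted p = 6.62e-05). The citric acid cycle had 3 of 16 genes higher at 5 h, and 2 higher and 2 lower at 12 h. Its largest changes, all at 12 h, were 0.50 for SDHB, -0.41 for FH and -0.36 for SDHD (log2).

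In the side branches, serine and one-carbon genes had 3 higher and 5 lower of 8 at 5 h, and 4 higher and 2 lower at 12 h. Beside these branches, 24.9% of all genes tested were higher and 24.8% lower at 5 h, and 26.3% and 24.8% at 12 h. SHMT1 was lower (-1.40 and -1.21) and MTHFD1L higher (0.75 and 0.70), and PSPH was lower at 5 h (-0.60). Of 6 tested hexosamine genes 2 were higher at 5 h, UAP1 (0.74) and OGT (0.73). At 12 h OGT (0.27) and OGA (0.22) were higher and GNPNAT1 was lower (-0.73). Of 12 glycogen genes 1 was higher and 2 lower at 5 h, and 2 higher and 3 lower at 12 h. PHKA1, a subunit of phosphorylase kinase, was higher (0.95 and 1.60) and GYS1, glycogen synthase, was lower (-0.76 and -0.38). PYGM, muscle phosphorylase, was lower at 12 h (-2.39). Its level was low, at 0.936 ± 0.253 CPM per kilobase at 0 h and 0.173 ± 0.0508 at 12 h (mean ± SD, n = 3), so its fold change is imprecise. All changes given for the side branches are log2 values that passed the test.

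Of 12 tested regulators of sugar use, 5 were higher and 4 lower at 5 h, and 2 higher and 5 lower at 12 h. Shares over all genes tested were 24.9% higher and 24.8% lower at 5 h, and 26.3% and 24.8% at 12 h. MYC was at 221, 212 and 199.9 CPM at 0 h, 279.9, 260.3 and 287 CPM at 5 h and 82.1, 94.3 and 94.2 CPM at 12 h, higher at 5 h (log2 0.38, SE 0.09, adjusted p = 8.94e-04). By 12 h the level was 2.33-fold lower (log2 -1.22, SE 0.09, adjusted p = 7.10e-10). By mean CPM this order of times, highest at 5 h and lowest at 12 h, was also that of PFKFB3, HK2, PGAM1, PFKP, PFKFB2 and PDHB. Of these, PFKFB3, HK2 and PGAM1 were called lower at 12 h against 0 h. PFKP, PFKFB2 and PDHB were not, and the PDHB means were 56.21 CPM at 0 h and 56.16 CPM at 12 h. Among the genes with CACGTG, LDHA, GAPDH, ALDOA, ALDOC and PDK2 did not have this order of means. A link to MYC was not tested. TXNIP, which restrains glucose uptake and is itself induced by glucose, held 24, 32 and 22 counts at 0 h, 6, 4 and 3 at 5 h and 3, 3 and 0 at 12 h and was called lower at both times (log2 -3.45, SE 0.57, adjusted p = 3.76e-05 at 12 h). Its relative ARRDC4 held 43, 27 and 35 counts at 0 h, 13, 17 and 17 at 5 h and 3, 16 and 8 at 12 h and was called lower at both times. IRF4, a factor induced through the T-cell receptor, held 2, 0 and 3 counts at 0 h and 15, 15 and 17 at 5 h (log2 3.29, SE 0.57, adjusted p = 6.41e-05), and fold changes at such counts are imprecise.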

How the data were processed

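Messenger RNA of Jurkat cells was measured in 9 libraries, 3 each at 0 h, 5 h and 12 h. The authors deposited whole-number counts per Ensembl gene. The build GRCh38.p13 and the tools RSEM, cutadapt and DESeq2 are listed, without roles, in the submitters' processing notes. RSEM gives estimated counts, so these may be rounded. How strand was used, the aligner and the annotation are not given in the sources used. The authors also deposited log2 values, each the log2 of a count over 1 factor per library plus 1, for the 12692 genes with counts in all libraries. They were used in 1 alternative.

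Genes were tested with edgeR 4.0.16 (R 4.3.3), a quasi-likelihood fit of all 9 libraries with TMM scaling and filterByExpr, which left 12036 of 19569 genes. Benjamini-Hochberg adjustment ran over all of them and a call is an adjusted p under 0.05. Replicates varied by a common biological coefficient of variation of 0.0887. The fit was tested on simulated data. At 5 h against 0 h it called 5 of 50 genes raised 1.25-fold, 36 of 50 raised 1.5-fold and 44 of 50 raised 2-fold. Of unchanged genes it called 8 of 11708. Small changes could thus be missed. Few genes were changed in the simulation, while 49.7% of all genes were called in the data, so these rates need not hold there. No pair of replicates agreed within sampling noise. Ratios (0.5 added to each count) and shares of counts were compared by exact two-sided permutation tests (scipy 1.17.1). Alternatives were DESeq2 1.42.0, limma 3.58.1, other scalings and filters, a replicate block and leaving out each library. Levels per kilobase use the principal transcript of each gene in GENCODE 29.

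The members and lists were chosen with earlier results of these data known. Library values are given for members with a called log2 change of at least 0.5 and for at least 1 member of each step. Of every other list, up to 3 called genes with the largest change against 0 h are named, plus MYC and TXNIP. This rule does not cover the genes marked as named after their values were seen. A gene that the rule also names is not reported here.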

Additional observations from a re-analysis of the deposited data

Results flagged for a closer look

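For 13 members the effect of activation at 12 h differed from that at 5 h, by the test of the difference itself, the contrast of 12 h with 5 h in edgeR's quasi-likelihood fit with 3 libraries a group. These are 35.1% of the members, and 36.1% of all genes tested were called in the same contrast. The log2 difference (12 h effect minus 5 h effect) was -0.65 for SLC2A3, -0.42 for HK2, -0.29 for PFKP, -0.32 for PGAM1, -0.58 for LDHA, -0.58 for SLC16A1, -0.70 for PFKFB3 and -0.29 for HIF1A. It was 0.63 for PFKL, 0.68 for ALDOC, 1.20 for PFKFB4, 0.26 for PGD and 0.32 for TKT. Adjusted p ranged from 4.59e-05 for PFKFB3 to 0.0451 for PGD. PFKL, PGD, TKT and PFKFB4 share 1 course, lower at 5 h than at 0 h and higher at 12 h than at 5 h with no call at 12 h against 0 h, and PFKFB3 alone was called on opposite sides of its 0 h level. In PFKL, PFKP and PGD the 5 h and 12 h libraries overlapped. Groups of 3 libraries were too small to test for a single outlying library. By rank, 12 h replicate 1 was the lowest of its group for 25 of the 37 members.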

How the results depend on the processing

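The member counts were recomputed under 17 alternatives. Of the calls, 15 of 25 at 5 h, 13 of 22 at 12 h and 9 of 13 between the times were kept under all 17, and no called member changed direction. Upper-quartile scaling gave 7 members higher at 5 h, where the TMM count was 12. It moved the median of all genes to -0.08 (log2) at 5 h and lowered the share of higher calls from 50.1% to 40%. Leaving out 1 library at a time gave 7 (without 0 h replicate 2) to 14 members higher at 5 h, and 3 (without 12 h replicate 2) to 7 higher at 12 h against 5 h. The cause was not tested. The replicate block, a fit with the replicate number as a term, gave 10 members higher and 13 lower at 5 h, 9 and 12 at 12 h, and 5 and 8 between the times, so that the calls of PGK1 (adjusted p = 0.0557) and PDHB (adjusted p = 0.0505) at 5 h and of ALDOC (adjusted p = 0.0524) at 12 h were lost. Same-numbered libraries did not deviate together (correlations -0.143 to 0.163, and 2 of 9 libraries correlated best with their own number). The labels do not say whether same-numbered libraries were paired, and correlations of deviations from means of 3 libraries cannot decide it. Some values near 0 that had not been called changed sign. With upper-quartile scaling these were PFKM (-0.0354) and PDK3 (-0.022) at 5 h, and PGK1 (-0.0259) and PDHB (-0.0631) at 12 h. PDHB at 12 h was also -0.00175 with limma on the deposited log2 values, -0.00102 without a low-count filter, -0.00721 with a filter of 50 counts and -0.00109 with only these groups in the fit. Over the left-out libraries the log2 change ran from -0.331 to 0.546 for PFKM and -0.0463 to 0.119 for PDK3 at 5 h, and at 12 h from -0.0791 to 0.0356 for GPI, -0.172 to 0.0253 for PFKP, -0.00515 to 0.0817 for PGK1 and -0.0461 to 0.0319 for PDHB. The difference in log2 ratio ran from -0.58 to 0.359 for PFKM to PFKP at 5 h and -0.105 to 0.833 at 12 h, -0.163 to 0.0172 for ALDOA to ALDOC and -0.0377 to 0.113 for PDK1 to PDK3 at 12 h, and -0.0151 to 0.0942 for ENO1 to ENO2 at 12 h against 5 h. The share of counts of all members at 12 h less that at 5 h ran from -0.0301 to 0.0693 percentage points over the left-out libraries, and was -0.0018 on TMM-scaled library sizes and -0.0458 without GAPDH. For the glycolytic enzymes it ran from -0.0212 to 0.0755. For pyruvate dehydrogenase and its kinases the differences ran from -0.000422 to 0.000862 at 5 h, -0.000455 to 0.000851 at 12 h and -0.00082 to 0.000636 between the times. Depth limits PFKM, PFKFB4 and SLC16A3, which have the fewest counts among the members.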
